A study of Hordeum vulgare with 18 samples.

Results

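Small RNA profiles of unheated barley shoots were taken from the 9 libraries that the labels place at the control temperature of 21 °C, of 18 libraries in the series. The study set shoots of 2-week-old plants of the spring barley line Rolap held at 35.5 °C for 1, 3 or 6 h beside shoots kept at 21 °C and collected in parallel. The unheated libraries form 3 groups, control 1 h, control 3 h and control 6 h, with 3 libraries each that the labels call biological replicates. All 3 groups share line, tissue, age and temperature, and differ in collection time. The plants had grown under a 16 h day at 21 °C with nights at 15 °C, and neither the clock time of each collection nor the number of plants behind a library is given in the sources used here. Control 3 h and control 6 h were sequenced on lane 2 and control 1 h on lane 1, by the lane numbers in the library titles. The later of the lane 2 groups, control 6 h, was therefore compared with control 3 h, while for control 1 h time and lane cannot be told apart.

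MicroRNAs (miRNAs) are short RNAs cut in plants by DICER-LIKE1 from the stem of a hairpin precursor, which has a 5′ and a 3′ arm. The strand loaded into ARGONAUTE1, most often one that begins with U, guides the cleavage or translational repression of mRNAs that pair with it nearly along its whole length. In leaves the conserved families hold transcription factors of development, hormone response and nutrient use in check, and a few of them were reported to follow light and dark in Arabidopsis.

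The sequences below carried most of the counts. Each is the commonest sequence of 1 of the 12 leading families, written as DNA as in the deposited tables, 5′ to 3′, with bases 2 to 8 (the seed) in capitals.
miR166: tTCGGACCaggcttcattccc
miR396: tCCACAGGctttcttgaactg
miR168: tCGCTTGGtgcagatcgggac
miR159: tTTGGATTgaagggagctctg
miR5168: tCGGACCAggcttcaatccct
miR444: cGGCAAGCtagagacagcaac
miR167: tGAAGCTGccagcatgatctgc
miR156: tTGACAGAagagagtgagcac
miR5048: tATATTTGcaggttttaggtct
miR9662: tGAACATCccagagccaccgg
miR319: cTTGGACTgaagggtgctccct
miR393: tTCCAAAGggatcgcattgat

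A second set is shown because these were among the 10 sequences of lowest p at control 6 h against control 3 h, where none passed the adjusted threshold. They are mature sequences of miR408, miR528 and miR5051 and a miR397 sequence annotated only as precursor.
miR408 5′ arm: cAGGGATGgagcagagcaagg
miR528 3′ arm: cCTGTGCCtgcctcttccatt
miR528 5′ arm: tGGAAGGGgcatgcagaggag
miR5051 3′ arm: tTTGGCACcttgaaactggga
miR397a precursor: aCCGGCGCtgcacgcaatgacg

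Table counts per unheated library ran between 1493566 and 3214221. Against library totals worked out from the RPM columns, that is 5.19 to 8.19%. Between 2008 and 2408 distinct sequences of 18 to 25 nt had a count in a library, and a count of 0 allows up to 3 counts, or 0.0764 to 0.129 RPM, by counting error alone. Over the 9 libraries 5537 sequences of 184 families were detected. Of these, 922 sequences had counts in all 9 libraries and held 99.77 to 99.8% of the counts of a library. In the bulk shoot, fewer cells of a type and less RNA per cell cannot be told apart. No miRNA was taken as a defining marker of the shoot. As markers of another organ, miR2118 and miR2275, which trigger phased RNAs in grass anthers, had 0 counts in all 9 libraries and 7 counts in 3 of 9 libraries.

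The library control 3 h replicate 1 stood apart from the other 8. miR159 held 1.07% of its counts, against 6.88 and 6.94% in the other control 3 h libraries. miR396 held 15.2%, against 28.3 and 26.2%, and miR168 held 20.9%, against 10.2 and 9.04%. Of 72 families compared on CPM, the counts scaled to library size and TMM factor, 14 were lower and 20 higher in it than in any other library. The deepest was miR9773, with 4.04 CPM in this library and 187 to 933 CPM in the other 8. The median absolute log2 difference of the 40 larger families was 0.63 and 0.54 between it and its group mates and 0.18 between those mates. Values without it are given for some of the families and sequences where it moved a call or a value.

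**Figure D1:**
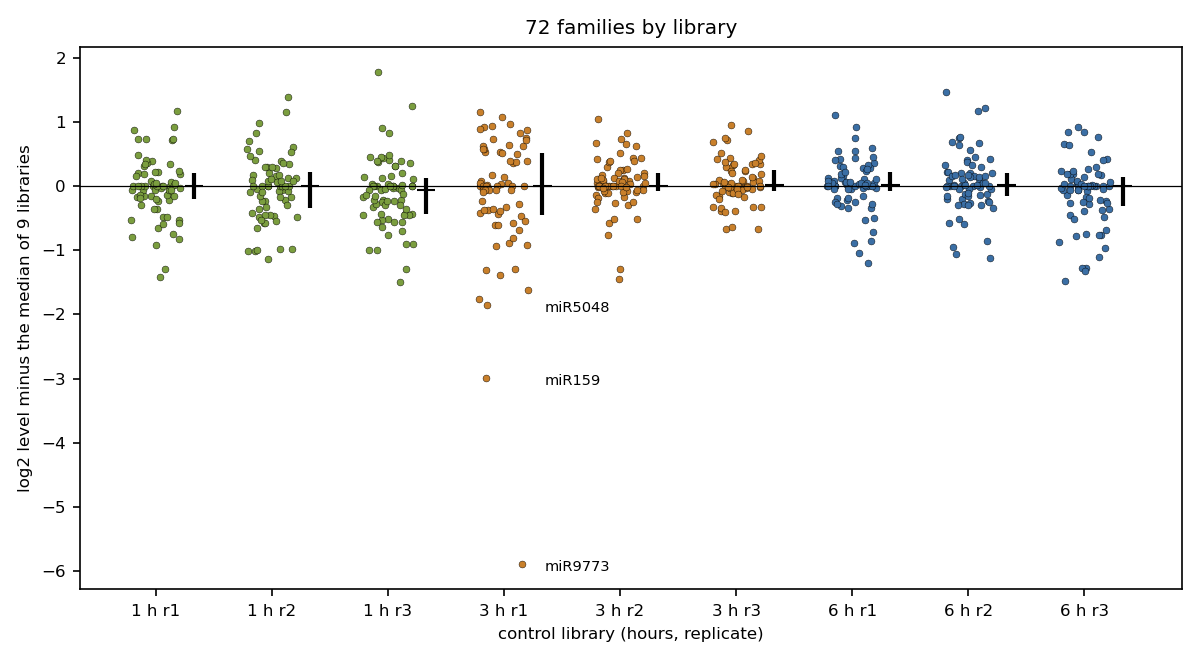
Level of each of 72 families in each unheated library, as log2 CPM minus the median of the 9 libraries; points are families, the bar spans the quartiles and its tick is the median. In control 3 h replicate 1 the families spread most widely, with miR9773, miR159 and miR5048 lowest.

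The unheated profile was dominated by few families. The 12 leading families held on average 97.0% of the counts, and the first 4 held 75.3%. The 10 most abundant sequences alone took 77.4 to 80.8% of a library, and 20 to 25 sequences reached 90% of it. Shares are of the counts in the deposited table of that time and were not tested in this description.

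miR166, which represses HD-ZIP III mRNAs that set leaf polarity, led with a mean share of 30.9% ± 4.36 (SD, n = 9). Its shares were 25.5, 26.1 and 26.5% in control 1 h, then 36.2, 28.6 and 31.3% in control 3 h, then 33.3, 36.6 and 33.8% in control 6 h. The libraries of 1 h thus lay below all others. miR5168, which shares the miR166 core sequence, stood at 7.00% ± 0.871 and showed the same order, with 5.84 to 5.98% at 1 h and 7.01 to 7.88% in the other 6 libraries. These gaps are of table shares and were not seen after TMM scaling over the 9 libraries. On that scale miR166 had 267423 to 325067 CPM at 1 h and 283497 to 359136 CPM in the other 6 libraries, and miR5168 also overlapped, at 61155 to 74596 CPM and 66784 to 77202 CPM. The sequences of miR165, miR166 and miR5168 are nearly alike, so their split follows the authors' annotation and is uncertain.

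miR396, which represses growth-regulating factor (GRF) mRNAs, came next with 25.5% ± 4.97 (SD, n = 9). Control 1 h had 30.4, 30.0 and 29.5%, control 3 h 15.2, 28.3 and 26.2%, and control 6 h 22.7, 21.6 and 25.03%. All 3 libraries of 1 h lay above those of the later times, as they did on the TMM scale. miR168, which represses the ARGONAUTE1 mRNA and so acts on the miRNA pathway itself, took 6.89 to 8.62% in control 1 h. Control 3 h had 20.9, 10.2 and 9.04% and control 6 h 9.86, 10.1 and 8.96%, so a single library made the 3 h mean high.

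miR159, which represses GAMYB transcription factor mRNAs, ranged between 1.07 and 15.2%. Control 1 h had 11.3, 15.1 and 15.2%, control 3 h 1.07, 6.88 and 6.94%, and control 6 h 7.95, 6.41 and 7.74%. The libraries of 1 h did not overlap with the others on either scale. miR319, which is close to miR159 in sequence and represses TCP mRNAs, held 1.06 to 1.72% with all 3 times overlapping.

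The grass family miR444, which represses MADS-box mRNAs, was the steadiest of the larger families at 3.99% ± 0.327 (SD, n = 9; range 3.53 to 4.61%). miR167, a repressor of auxin response factor mRNAs, held 3.40% ± 0.569. miR156, which represses SPL mRNAs and keeps young plants in the juvenile phase, held 1.92% ± 0.286. miR393, which represses mRNAs of the TIR1 and AFB auxin receptors, held 0.836% ± 0.283. The cereal families miR5048 and miR9662 held 1.79% ± 0.621 and 1.40% ± 0.481, both lowest in control 3 h replicate 1 with 0.561% and 0.560%.

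**Figure D2:**
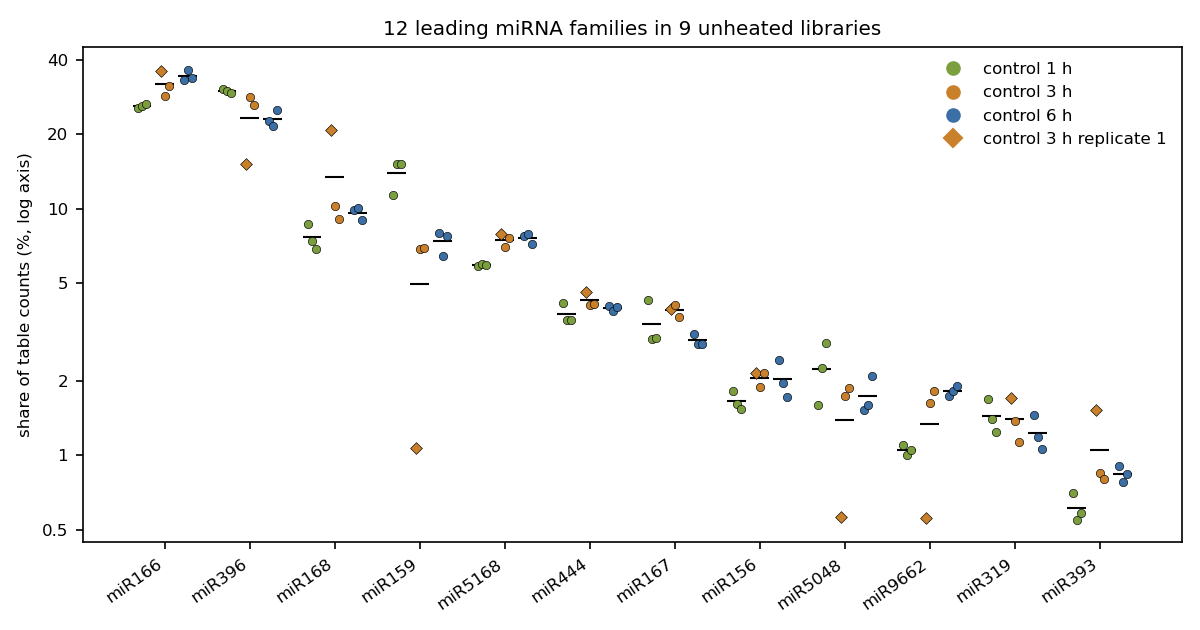
Share of the table counts (percent, log axis) of the 12 leading families in the 9 unheated libraries; points are libraries, coloured by time, lines are means of 3 libraries and the diamond is control 3 h replicate 1. miR166 and miR396 lead, and the diamond lies far below its group for miR159, miR5048 and miR9662.

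Below 1% on average came families of nutrient and stress control. miR169, which represses NF-YA mRNAs, held 0.662% ± 0.161 (SD, n = 9), and miR408, a repressor of plantacyanin and other copper protein mRNAs, held 0.307% ± 0.138. miR827, miR397 and miR399, which act on SPX-MFS transporters, laccases and the PHO2 ubiquitin-conjugating enzyme, held 0.258, 0.156 and 0.133%. miR171, a repressor of GRAS transcription factor mRNAs, held 0.124% and miR160, another repressor of auxin response factor mRNAs, 0.0927%. miR390, which starts the TAS3 small RNA pathway, held 0.0486%.

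Some families looked for by name were barely seen. Counts follow the names in the annotation, and sequences named miR156 and miR157 share a seed. miR162, a repressor of the DICER-LIKE1 mRNA, had 15 counts over the 9 libraries, miR157 had 7 and miR403 had 2. The dicot copper family miR857 had 0 counts in every library, as had miR482. miR172, which represses AP2-like mRNAs and opposes miR156 in the passage to the adult phase, averaged 0.00546% of the counts. The count ratio of miR156 to miR172 was 338, 258 and 243 in control 1 h, 307, 333.5 and 342 in control 3 h, and 504, 523 and 485 in control 6 h. It was higher in each library of 6 h than in any other library, and the difference was not tested.

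The tables name a matched species for each sequence, and the leading sequences were credited to precursors of relatives. Aegilops tauschii, a wild wheat relative, was named for 77.7% ± 4.03 of the counts (SD, n = 9), Hordeum vulgare for 9.91% ± 4.62 and Oryza sativa for 5.40% ± 0.524. The share named for Hordeum vulgare ran from 1.87 to 16.7% and was lowest in control 3 h replicate 1. The leading miR159 and miR5048 sequences are named for Hordeum vulgare.

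By the deposited match type, 43.1% ± 5.23 of the counts were mature 5′ sequences, 10.5% ± 1.65 mature 3′ sequences and 46.4% ± 3.82 sequences annotated only as precursor (SD, n = 9). Most of the precursor class was not loop or stem outside the miRNA. An end variant was counted where a precursor sequence shared at least 16 nt exactly with a mature sequence of its own family. End variants were 93.0% ± 0.527 of the precursor counts, 92.0 to 93.6% by library. Those of 3′ arms held 33.9% ± 4.50 of all counts and those of 5′ arms 7.99% ± 1.17, while 1.32% matched both arms. Only 3.23% ± 0.183 of the counts were other precursor sequences. These were 2811 distinct sequences but not evenly filled, since the commonest miR444 sequence alone held 1.89% of all counts.

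A single molecule made up most of the 3′-arm end variants. The leading miR166 sequence, at 29.3% ± 4.26 of all counts (SD, n = 9), is annotated as precursor. The commonest mature 3′ sequence of miR166, tCGGACCAggcttcattccct, is shown for its offset: its start and its end each lie 1 nt downstream of those of the leading sequence. It held 0.431% ± 0.0837. The shifted start places a different stretch in the seed, TCGGACC against CGGACCA. Sequences with the seed TCGGACC held 29.6% ± 4.28 of all counts, and those with CGGACCA held 7.24% ± 1.004, both from miR165, miR166 and miR5168.

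The miR444 family differed from the others in its make-up. Its commonest sequence, cGGCAAGCtagagacagcaac from MIR444c, overlapped no annotated mature arm and held 1.89% ± 0.113 of all counts. The mature 3′ sequence tGTTGTCTcaagcttgctgcc, shown for comparison with it, held 1.55% ± 0.331. Other precursor sequences made up 57.0% ± 5.26 of the family, from 44.3 to 63.5%, whereas they stayed at or under 0.303% of miR166, 0.0895% of miR396 and 0.0392% of miR168. They made up 2.97 to 27.8% of miR5048 and 0.821 to 8.68% of miR159.

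**Figure D3:**
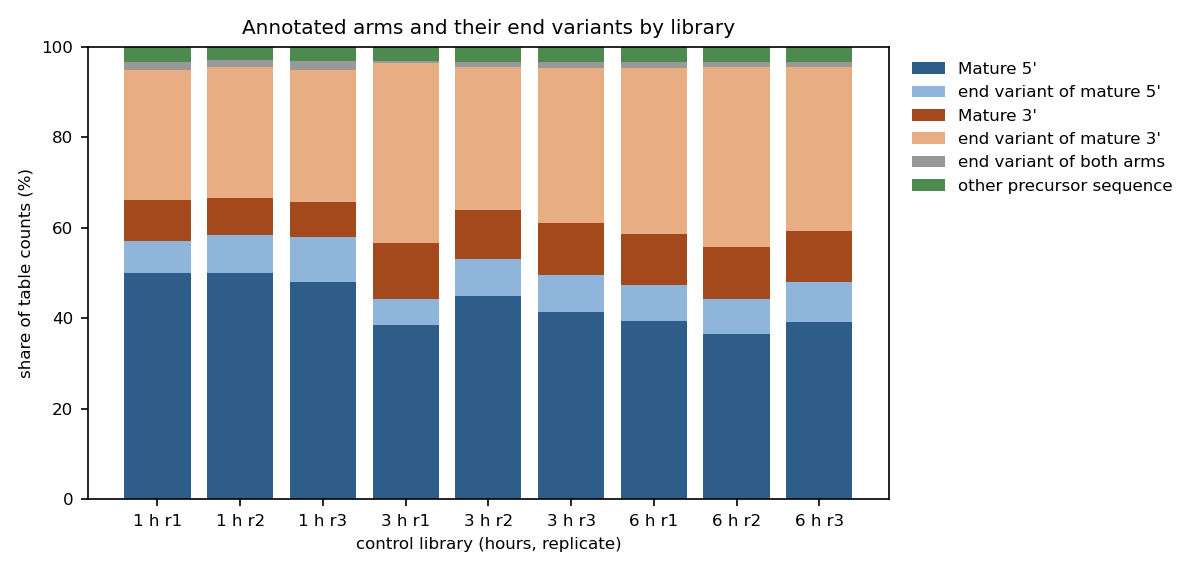
Share of the table counts (percent) in annotated mature arms, their end variants and other precursor sequences, stacked for each of the 9 unheated libraries. End variants of mature 3′ sequences, mostly 1 miR166 molecule, take 28.7 to 39.8%, and other precursor sequences 2.86 to 3.42%.

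Arms here are those of the deposited match type, which was not checked against the hairpins. Mature and end variant forms were summed, and end variants that matched both arms were counted in neither. The 5′ arm held 98.6% ± 0.207 of miR396 and 99.8% ± 0.0764 of miR393, and the 3′ arm 97.8% ± 0.466 of miR166 and 98.5% ± 0.426 of miR319 (SD, n = 9). Among the 12 leading families, miR168 and miR156 had the larger shares from the less used arm as annotated, miR168 at 11.7% ± 1.96 from the 3′ arm and miR156 at 10.5% ± 1.79 from the 3′ arm. The main 3′ form of miR168, cCCGCCTTgcaccaagtgaat, shown because it reached this level, held 1.03% ± 0.398 of all counts. Among the other families miR159 had 87.2% ± 2.60 and miR5048 92.6% ± 7.74 annotated to the 5′ arm. Which arm of the hairpin these sequences come from was not tested.

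Lengths were concentrated at 21 nt, the usual product of DICER-LIKE1. Sequences of 21 nt held 82.8% ± 0.845 of the counts (SD, n = 9), from 81.4 to 84.2%. Those of 22 nt held 6.79% ± 0.602, those of 20 nt 5.81% ± 0.403 and those of 18 nt 2.45% ± 0.324. Lengths of 23 and 24 nt held 0.222 and 0.232%, in tables that list miRNA precursor matches only, so nothing follows for 24 nt siRNAs of the shoot.

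The first base was T (U in the RNA) for 89.5% ± 0.488 of the counts (SD, n = 9). Among 21 nt counts it was T for 93.8% ± 0.447, yet only 37.1% of the 1236 distinct 21 nt sequences began with T. The preference was thus much stronger among the counts than among the listed sequences. At 18 nt A led with 68.2% ± 5.00, since the miR396 form aCAGGCTTtcttgaactg, shown because it sets this class, is the leading sequence without its first 3 nt and held 1.58% ± 0.368 of all counts. At 24 nt A led T, with 50.6% ± 5.31 against 36.6% ± 5.04.

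How evenly a family's counts fell on its sequences differed between families and, for some, between times. The commonest sequence held 94.9% ± 0.546 of miR166 and 86.9% ± 0.956 of miR319, but 46.4% ± 9.59 of miR9662 (SD, n = 9). For miR396 the leading sequence held 62.0, 62.2 and 60.4% of the family at 6 h, against 64.6, 68.7 and 66.9% at 3 h. For miR167 it held 57.2, 55.3 and 49.4% at 6 h, against 59.1, 61.2 and 60.9% at 3 h. In both families every library of 6 h lay below those of 3 h. The means of 1 h, on lane 1, were higher still at 71.3% and 67.2%, where time and lane cannot be told apart. For miR396 the libraries of 1 h, at 68.4 to 74.4%, overlapped with those of 3 h. For miR393 the leading sequence held 73.8, 71.8 and 76.0% at 6 h, against 68.9, 69.0 and 71.0% at 3 h. These 3 of 12 families were those whose ranges did not overlap, and the differences were not tested.

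The comparison of control 6 h with control 3 h asks how far the unheated baseline moved between these collections on a single lane. No family and no sequence passed the test. With edgeR's quasi-likelihood test and Benjamini-Hochberg adjustment at 0.05, 0 of 71 families (0%) and 0 of 674 sequences (0%) were called. Under an unadjusted p of 0.05 lay 5 families (7.04%), all lower at 6 h, and 42 sequences (6.23%), 11 higher and 31 lower. DESeq2 called 0 sequences and 2 families, miR528 and miR5051. The ranges of the groups did not overlap for 8 families (11.3%) and 100 sequences (14.8%). Fold changes below are log2 values of control 6 h over control 3 h with their SE, and levels are CPM scaled by TMM over these 6 libraries (mean ± SD, n = 3 per group).

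The fitted differences were mostly under 2-fold. Of the 71 families, 70 had an absolute log2 fold change under 1, with miR528 the exception, and so had 628 of the 674 sequences. The 95% interval lay wholly within -1 to 1 for 33 families and 185 sequences, so for the remaining ones a change of 2-fold was not excluded by the interval. The median SE was 0.29 for families and 0.41 for sequences. Among the leading families the intervals were narrowest for miR166, from -0.09 to 0.38, for miR444, from -0.40 to 0.25, and for miR5168, from -0.26 to 0.35.

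miR528, a monocot family with targets among copper protein and other oxidase mRNAs, had the lowest p. It stood at 83.2, 152 and 61.3 CPM at 6 h, against 241, 258 and 281 CPM at 3 h. All 3 libraries of 6 h lay below those of 3 h. The log2 fold change was -1.39 ± 0.34 (edgeR adjusted p = 0.226; 95% interval -2.20 to -0.59). With DESeq2 it passed (-1.39, adjusted p = 0.00785), as it did in edgeR without control 6 h replicate 2, the highest library of its group (-1.84, adjusted p = 0.0383). Over its 16 alternatives the adjusted p ran up to 0.999.

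miR5051, a cereal family with no function assigned here, stood at 1520, 1482 and 1414 CPM at 6 h. The libraries of 3 h held 2101, 3309 and 3234 CPM, with the library that stood apart the lowest. The log2 fold change was -0.97 ± 0.26 (edgeR adjusted p = 0.226). It passed with DESeq2 (-0.95, adjusted p = 0.00785), and in edgeR without control 3 h replicate 1 (-1.14 ± 0.15, adjusted p = 0.00226). Nearly all of its counts were of the 3′ arm sequence tTTGGCACcttgaaactggga, which went with it (-0.99 ± 0.25, adjusted p = 0.384) and likewise passed without control 3 h replicate 1 (-1.17 ± 0.14, adjusted p = 0.000539).

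The other families named by their p-values were not called by any of the settings tried. miR530 stood at 23.9, 39.6 and 37.1 CPM at 6 h, against 84.2, 61.8 and 39.6 CPM at 3 h (-0.88 ± 0.34, edgeR adjusted p = 0.589), and moved to -0.58 without control 3 h replicate 1. miR172 stood at 48.4, 38.96 and 34.5 CPM at 6 h, against 62.9, 58.3 and 57.1 CPM at 3 h (-0.55 ± 0.21, edgeR adjusted p = 0.589). miR167 stood at 31689, 29336 and 27542 CPM at 6 h, against 35922, 43458 and 36036 CPM at 3 h (-0.38 ± 0.16, edgeR adjusted p = 0.639). In these families each library of 6 h lay below each of 3 h, in miR530 by less than the rounding shown. miR1432 (-0.58 ± 0.25, and -0.34 ± 0.19 without control 3 h replicate 1), miR5084 (-0.58 ± 0.30, and -0.40 ± 0.31 without it) and miR1130 (0.77 ± 0.40) followed, and miR1130, higher at 6 h, had a mean of only 10.9 CPM at 6 h and 6.35 CPM at 3 h.

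**Figure D4:**
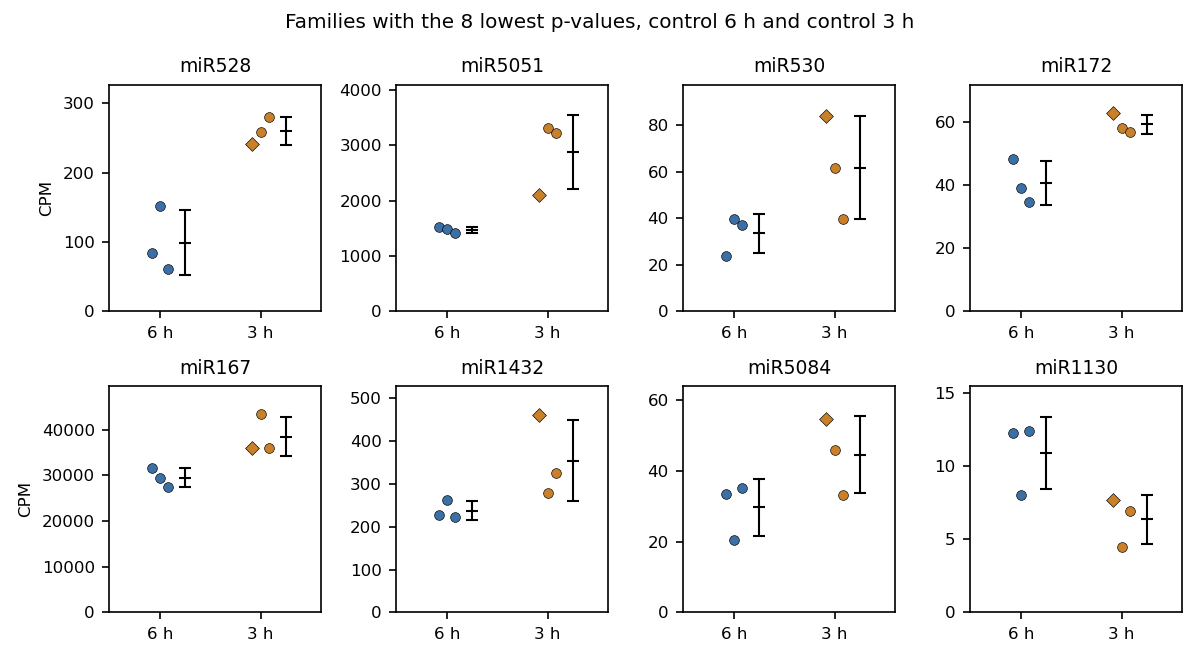
CPM of the 8 families with the lowest p-values in the 3 libraries of control 6 h (left in each panel) and control 3 h (right); points are libraries, the diamond is control 3 h replicate 1, and bars show the mean ± SD. Groups do not overlap in 7 of the 8 panels, miR5084 being the exception, and no family passed the adjusted threshold. The panels were picked by p in this same comparison, so such separation carries no further evidence. Over all 71 families the groups did not overlap for 8 (11.3%).

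The 4 tested copper-related families, of 5 listed, all had negative fold changes with a median of -0.47, beside -0.06 over all 71 families. None of these families was called by edgeR with all 6 libraries, while DESeq2 called miR528. Beyond miR528 they were miR408, with 3130 ± 1008 CPM at 6 h and 4274 ± 682 CPM at 3 h (-0.45 ± 0.31), miR397 at 1753 ± 475 and 1827 ± 297 CPM (-0.06 ± 0.29), and miR398 at 75.8 ± 25.7 and 107 ± 44.7 CPM (-0.50 ± 0.40). miR398 represses mRNAs of copper superoxide dismutases, and miR397 those of laccases. Of their 31 tested sequences, 25 had negative fold changes, and 12 were lower and 0 higher under an unadjusted p of 0.05, with a median of -0.81. The 12 were 5 forms of miR528, 5 of miR408 and 2 of miR397, and forms of a family are not independent. Over all 674 sequences 4.6% were lower and 1.63% higher under that p, and the median was 0.00. None of the 31 was called by DESeq2 or by edgeR with its filter on low counts. Without that filter the 3′ sequence of miR528 passed in edgeR. As a family, miR408 was highest in control 3 h replicate 1, at 5039 CPM beside 3730 and 4054 CPM in its group mates. At 6 h it had 3474, 3921 and 1995 CPM.

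The larger differences lay in less abundant forms. The mature 5′ sequence of miR408 (cAGGGATGgagcagagcaagg) stood at 78.0, 122 and 78.2 CPM at 6 h, against 239, 171 and 281 CPM at 3 h (-1.31 ± 0.31, edgeR adjusted p = 0.384). Its form 1 nt shorter at the 3′ end, cAGGGATGgagcagagcaag, shown for its lowest p of the 674 sequences, stood at 3.87, 7.42 and 7.82 CPM at 6 h, against 28.4, 24.4 and 23.01 CPM at 3 h (-1.97 ± 0.40, adjusted p = 0.384). The miR408 3′ form tGCACTGCctcttccctggct, also of the 10 lowest p, was at -1.59 ± 0.40 (adjusted p = 0.384), and at -1.16 ± 0.37 without control 3 h replicate 1. The commonest sequence, the mature 3′ tGCACTGCctcttccctggc, shown because it makes up most of the family, had 2408 CPM at 6 h and 3115 CPM at 3 h (-0.37 ± 0.29). The 3′ and 5′ arm sequences of miR528 printed above stood at -1.61 ± 0.44 and -1.54 ± 0.45, and the miR397a precursor sequence aCCGGCGCtgcacgcaatgacg at -1.53 ± 0.36, each with every library of 6 h below those of 3 h. With no filter on low counts the 3′ sequence of miR528 passed (adjusted p = 0.0124). miR528, miR408 and miR397 share no seed among the forms shown.

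**Figure D5:**
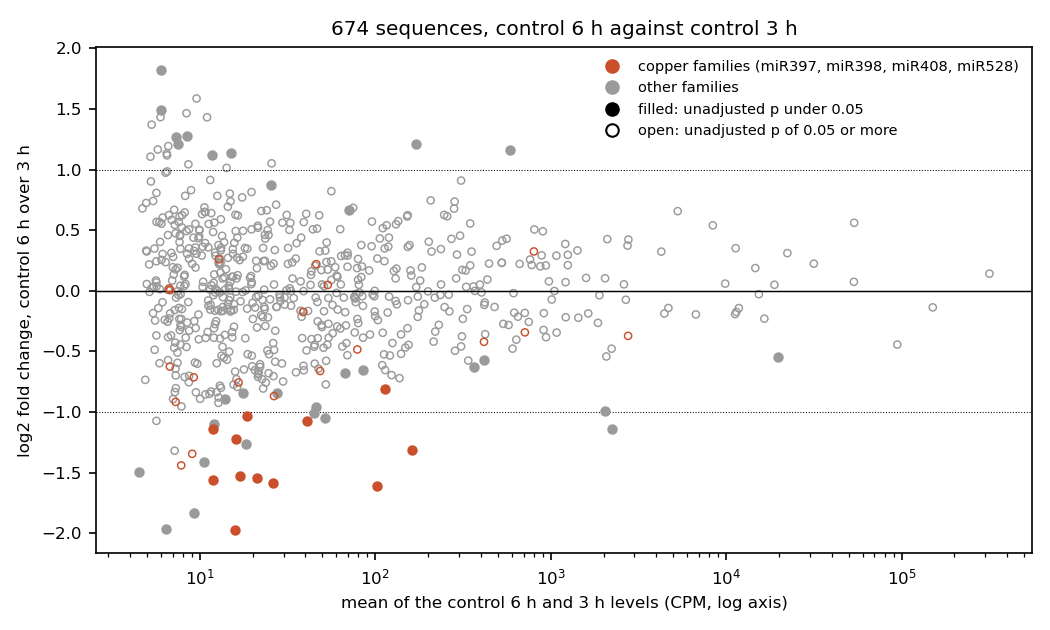
Log2 fold change of control 6 h over control 3 h against the mean level (CPM, log axis) for 674 sequences; points are sequences, orange marks copper families and filled points have an unadjusted p under 0.05. The 12 filled orange points, forms of miR528, miR408 and miR397, all lie below 0, and none of the 674 passed the adjusted threshold.

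The list of families reported to follow light and dark in Arabidopsis had 4 of 4 negative fold changes, with a median of -0.40 and none called. They were miR167, miR168 (-0.42 ± 0.27), miR171 (-0.26 ± 0.28) and miR398, which the copper list also holds. The value of miR168 moved to -0.03 without control 3 h replicate 1, where that family had been high. miR171 was also highest in that library, at 2062 CPM beside 1220 and 1216 CPM in its group mates. At 6 h miR171 had 1338, 1171 and 1250 CPM. The negative values of miR168 and miR171 thus rested largely on that library. Over all 71 families 40 were negative, with a median of -0.06. Of the 73 sequences of this list 7 were under an unadjusted p of 0.05 and lower and 0 higher, beside 4.6% and 1.63% over all 674. The 7 were 4 forms of miR167 and 3 of miR168, and forms of a family are not independent. Of the 10 lowest p in this list were a miR168 precursor form, cGGATCCCgccttgcaccaag (-1.97 ± 0.57), with at most 2.61 CPM in a library of 6 h and 5.98 to 14.2 CPM at 3 h, and a miR167f form, cTGAAGCTgccagcatgatctg (-1.26 ± 0.37; edgeR adjusted p = 0.472 for both).

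The auxin list of miR160, miR164, miR167, miR390 and miR393 lay between -0.38 and -0.08, all 5 negative and none called. Control 3 h replicate 1 held more miR160, miR390 and miR393 than any other unheated library, and without it miR393 was at 0.00189. For miR160 it had 1601 CPM, beside 888 and 773 CPM in its group mates. For miR390 it had 732 CPM, beside 447 and 492 CPM in its group mates and 464, 509 and 607 CPM at 6 h. miR160 stood at 844 ± 41.6 CPM at 6 h and 1087 ± 449 CPM at 3 h, and miR164, a repressor of NAC mRNAs, at 154 ± 25.8 and 164 ± 34.1 CPM. In the leaf development list miR166 was at 0.14 ± 0.10, miR319 at -0.16 ± 0.23, miR165 at -0.42 ± 0.44 and miR159 at 0.55 ± 0.62. miR165 had 1335 CPM in control 3 h replicate 1, beside 417 and 589 CPM in its group mates and 618, 476 and 658 CPM at 6 h. miR396 was at -0.01 ± 0.26, and its sign turned with DESeq2, RLE factors and implied totals among others. Without control 3 h replicate 1, miR159 was at 0.06 ± 0.11 and miR396 at -0.27 ± 0.09 (edgeR adjusted p = 0.234), so the width of their intervals came with that library.

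No family of the remaining lists was called by edgeR with all 6 libraries, while DESeq2 called miR528 and miR5051 of the grass list. For photoperiod and flowering, miR156 was at 0.01 ± 0.20, its sign turning with scaling by library size only, and miR5200, which represses FT mRNAs in temperate grasses, at -0.10 ± 0.34 with 23.8 ± 3.92 CPM at 6 h and 25.4 ± 9.54 CPM at 3 h. For phosphate and sulfate, miR399 was at 0.32 ± 0.44, miR827 at -0.12 ± 0.43 and miR395, which acts in sulfate assimilation, at 0.46 ± 0.45. miR169 was at -0.15 ± 0.21, and the NF-YA and GRAS list of miR169 and miR171 had a median of -0.20. Of the silencing list only miR168 had counts enough to be tested. The grass list, which includes miR528 and miR5051 described above, had 3 of 10 families above 0 and 7 below, with a median of -0.09. In it miR444 was at -0.07 ± 0.14, miR5048 at 0.31 ± 0.45, miR5049 at 0.06 ± 0.20 and miR9863, which represses Mla immune receptor mRNAs in barley, at -0.35 ± 0.22.

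Among the 10 sequences of lowest p only 1 had a positive fold change. This miR166d end variant tCGGACCAggcttcattccca, shown for that reason, stood at 405, 1042 and 996 CPM at 6 h, against 368, 345 and 382 CPM at 3 h. The fold change was 1.16 ± 0.35 (edgeR adjusted p = 0.472), and every library of 6 h lay above those of 3 h, the first of them only just. Of the 11 sequences under an unadjusted p of 0.05 and higher, 9 were annotated as precursor, as were 24 of the 31 lower ones and 545 of all 674 (80.9%).

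No share by length or match type passed its test between the lane 2 groups. Sequences of 22 nt held 6.42, 5.93 and 6.18% at 6 h, against 6.58, 7.58 and 6.89% at 3 h, without overlap (difference -0.84 points, two-sided exact permutation p = 0.1, adjusted over 5 lengths 0.5). With 3 libraries against 3 the smallest p of this test is 0.1. The precursor share was 49.1, 52.0 and 49.5% at 6 h, against 49.0, 44.2 and 47.1% at 3 h (exact p = 0.1, adjusted over 3 classes 0.3). The mature 5′ share was 38.4% ± 1.63 at 6 h and 41.6% ± 3.23 at 3 h (n = 3 each, exact p = 0.3), and the 21 nt share 83.2% ± 0.318 at 6 h and 82.95% ± 1.09 at 3 h (exact p = 0.8).

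Control 1 h was set against the mean of control 3 h and control 6 h as a description of how far the profile differed where time and lane cannot be told apart. With edgeR 3 of 72 families (4.17%) and 10 of 790 sequences (1.27%) passed. Of the families miR5051 was higher (1.39% of those tested) and miR5566 and miR6300 lower (2.78%), and of the sequences 6 were higher (0.759%) and 4 lower (0.506%). Under an unadjusted p of 0.05 lay 6 families higher (8.33%) and 7 lower (9.72%). Ranges did not overlap for 8 families (11.1%) and 81 sequences (10.3%). With scaling by library size only, which moved the median log2 fold change of all sequences to -0.28 from 0.01 and that of families to -0.41 from -0.09, the split was 1 sequence higher and 16 lower, and 0 families higher and 4 lower. DESeq2 called 45 sequences and 8 families. Without control 3 h replicate 1 the counts were 62 and 16, and without each other library in turn 2 to 8 and 0 to 4.

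miR5566 stood at 62.0, 59.4 and 82.4 CPM at 1 h, with 117 to 129 CPM at 3 h and 114 to 145 CPM at 6 h (-0.91 ± 0.18, edgeR adjusted p = 0.0359). The heated libraries on lane 1 are those of 1 h and 3 h and those on lane 2 are of 6 h only, so that among them lane and time in the heat cannot be told apart either. In CPM of the whole table without TMM, miR5566 had 61.8 to 92.3 in the heated libraries of lane 1 and 167 to 240 in those of lane 2. miR6300 stood at 33.8 to 46.1 CPM at 1 h, 58.1 to 121 CPM at 3 h and 75.1 to 136 CPM at 6 h (-1.27 ± 0.29, adjusted p = 0.0394). Its call was lost in 8 of 17 alternatives and that of miR5566 in 6. The miR6300 levels of these heated libraries overlapped, at 13.1 to 95.1 such CPM on lane 1 and 83.5 to 188 on lane 2.

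miR5051 stood at 4866, 3259 and 2913 CPM at 1 h, 1943, 3063 and 3030 CPM at 3 h, and 1417, 1403 and 1356 CPM at 6 h, scaled over all 9 libraries (0.93 ± 0.22, edgeR adjusted p = 0.0394). The call was lost in 11 of 17 alternatives, and leaving out control 1 h replicate 1, the highest library, gave 0.69. Its means ran downwards over the 3 times, and the step between 3 h and 6 h lay within lane 2. The heated libraries overlapped, at 208 to 3687 such CPM on lane 1 and 2559 to 3752 on lane 2.

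The 4 sequences lower at 1 h included both called sequences of MIR169c, gGCGGTCAccttggctagc and gGCGGTCAccttggctagcc, shown because they differed most. The first had 89.3, 107 and 108 CPM at 1 h, against 346 to 746 CPM in the other 6 libraries (-2.28 ± 0.25, edgeR adjusted p = 0.000569), and the second followed it (-2.75 ± 0.34, adjusted p = 0.00116). Both calls held in all 17 alternatives. For the first, heated shoots of lane 1 (1 h and 3 h of heat) held 59.0 to 538 such CPM and those of lane 2 (6 h of heat) held 694 to 1334. For the second they overlapped, at 16.8 to 89.0 and 41.8 to 112. The miR6300 sequence gTCGTTGTagtatagtgg and the miR166g sequence tTCGGACCaggcttcaatccc completed the 4, at -2.23 ± 0.36 and -0.79 ± 0.17.

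Of the 6 sequences higher at 1 h, that of miR396e, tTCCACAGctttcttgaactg, is shown because all its libraries of 1 h lay above the others at a high level. It had 3369, 2967 and 2788 CPM at 1 h and 1515 to 1899 CPM in the other 6 libraries (0.81 ± 0.15, edgeR adjusted p = 0.0216). The others were the miR5051 sequence, which was more abundant at 3493 ± 1024 CPM at 1 h (SD, n = 3), and forms of MIR169d, MIR5168, MIR159a and MIR166d, at 0.96 to 2.06. Of all 10 called sequences, 3 also lay apart in the same direction between the heated libraries of lane 1 and lane 2 and 7 did not, beside 63 of the 790 tested sequences (7.97%).

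The large families missed the threshold in this contrast with all libraries. miR159 was at 1.47 ± 0.45 and miR396 at 0.64 ± 0.20 (edgeR adjusted p = 0.0803 for both), and each was called higher at 1 h without control 3 h replicate 1 (1.22 ± 0.14 and 0.50 ± 0.08, adjusted p = 0.000173 and 0.00154). The leaf development list had 137 of 191 sequences higher, 41 of them under an unadjusted p of 0.05 beside 4 lower, with a median of 0.25. These are forms of 5 families, and forms of a family are not independent. Of the families 3 were above 0 and 2 below, miR166 at -0.07 and miR165 at -0.23. Over all 790 sequences 403 were above 0 and 387 below, and 10.4% were under that p and higher and 8.1% lower. The phosphate and sulfate list had 16 of 20 sequences lower with a median of -0.78, and its families miR395 and miR399 stood at -1.01 ± 0.38 and -0.98 ± 0.38 (adjusted p = 0.168 for both), both called lower without control 3 h replicate 1. The most abundant family of that list, miR827, was at 0.01 ± 0.34 (adjusted p = 0.981). The part of the lane in these values was not tested.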

How the data were processed

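Small RNA libraries of barley shoots were made with a TruSeq small RNA kit and 9 were pooled per lane, per the labels' protocols. The authors deposited 1 table per time with whole-read counts per distinct sequence and RPM values, per the file headers, and an annotation against plant miRNA precursors with 0 mismatches. The sources used here name neither the tools nor the annotation release. Library totals were computed as the counts over the deposited RPM.

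Tables were joined on the sequence. Families are the number in the name, and 20 sequences with names of more than 1 family were kept as combined classes. The deposited counts entered edgeR 4.0.16 under R 4.3.3 (quasi-likelihood F test, TMM, filterByExpr with minimum count 10 and minimum total 15, Benjamini-Hochberg, threshold 0.05). The 3142 sequences in both tables were used for control 6 h against 3 h, and the 2720 in all 3 for control 1 h. Family totals used the sequence table's library sizes and factors. CPM were scaled by TMM within a comparison, so levels of the 6-library and 9-library fits are on different scales. DESeq2 1.42.0, other scalings, filters and sample sets were alternatives. Where the libraries of a group are technical, p-values measure that spread only; the labels call them biological. Scripts were tested on simulated data. Shares used exact permutation tests (scipy 1.17.1), over 5 lengths and 3 match types, since the planned class of other mature sequences had no member. Figures came from matplotlib 3.10.9 and tables from pandas 2.3.3 with numpy 2.4.6 (Python 3.11.15). edgeR was loaded with limma 3.58.1. No library was a copy of another: the chi-square over degrees of freedom for replicate pairs ran between 13.7 and 300.

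The text names the 12 families of highest mean share with their commonest sequence, the 8 families and 10 sequences of lowest p at 6 h against 3 h, and the more abundant members of each list, 5 for the auxin and leaf lists. Lists were families cycling with light in Arabidopsis, photoperiod and flowering, copper, phosphate and sulfate, auxin, leaf development, NF-YA and GRAS regulators, silencing, and grass families. Sequences called at 1 h and further forms were named after their values were seen. Members, lists and tests were chosen with earlier results of these data known.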

Additional observations from a re-analysis of the deposited data

How the results depend on the processing

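No paired analysis was possible because the labels number no replicates and accession order pairs nothing. At 6 h against 3 h the count of called sequences was 0, and 1 with no filter on low counts, with 0 to 1 when each library was left out. The count of families was 0, 2 with DESeq2, and 0 to 1 when each library was left out. For 1 h against the later times, 10 sequences became 45 with DESeq2, 17 with library size only, 50 with no filter and 2 with a log2 fold change of at least 1, and 2 to 62 with a library left out. The 3 families became 8 with DESeq2, 0 with the fold threshold, 1 in the fit of all 18 libraries, and 0 to 16 with a library left out. The highest counts were those without control 3 h replicate 1.

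Some signs turned. For miR396 (-0.01) DESeq2 and RLE factors gave 0.0143, implied totals 0.0149, the fits of 18 and of 9 libraries 0.0162, the union of sequences 0.0185, and leaving out a library -0.27 to 0.21. miR156 (0.01) was at -0.0213 with library size only and -0.15 to 0.11 with a library left out. With a library left out miR5048 ran from -0.0844 to 0.56 and miR393 from -0.47 to 0.00189. Without the 10 most abundant sequences the share differences at 6 h against 3 h were -0.187 points for 20 nt, -0.561 for 21 nt and 0.0610 for 22 nt, turned against those with them. With a library left out they ran from -0.0050 to 0.603 for 20 nt, -0.175 to 0.846 for 21 nt and -0.557 to 0.273 for mature 3′ sequences. The causes were not tested. Shares of the 12 leading families moved by less than 1 SD in every alternative. Leaving out 1 of 9 libraries cannot move their mean by 1 SD, so those alternatives could not have shown otherwise.

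With 3 libraries a group and a median SE of 0.41 for sequences, the 95% interval lay within 2-fold for 185 of 674 sequences. Sequences with few counts are limited by depth, and the floor of 3 counts covers counting error only.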
